A study of Mus musculus with 12 samples.

Results

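Potassium channel genes were followed in 12 heart libraries of female mice, fed 1 of 2 diets and either nonpregnant or newly postpartum. Members are the genes whose mouse symbol begins with Kcn and a further letter, without antisense transcripts, with a mean of 10 or more raw counts over the libraries. That gave 49 of the 94 Kcn genes in the count files, which list 49315 genes in all. Kcnrg (mean 10.3 counts) and Kcnq5 (13.3) lay just inside the minimum, and Kcnk4 (9.50), Kcnab3 (9.17) and Kcnk1 (8.83) just outside. The mice were wild-type C57BL/6 females (C57BL/6J in the treatment protocol) aged 27 to 29 weeks at collection. The control diet held 10% of its energy as fat, and the Western diet held 45% as fat and 17% as sucrose, fed for 15 weeks before breeding to bring on an early form of metabolic syndrome. On each diet, postpartum hearts came from mothers on day 1 after delivery, and nonpregnant hearts from females kept on the same diet without breeding, with 3 libraries in each of the 4 groups. The series asks whether such a metabolic state alters the heart during pregnancy.

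Potassium channels let potassium leave the heart cell, which ends each action potential and holds the membrane at rest between beats. Pore-forming alpha subunits of the voltage-gated families (Kcna to Kcnd, Kcnh, Kcnq) open on depolarization, inward rectifiers (Kcnj) hold the resting potential, two-pore channels (Kcnk) carry leak current, and calcium-activated channels (Kcnn) respond to calcium. Accessory subunits (Kcne, Kcnip, Kcnab) and silent subunits (Kcng, Kcnv) change the gating or traffic of their partners. In the mouse ventricle the fast transient outward current and the rapidly activating Kcna5 current dominate repolarization, whereas larger mammals rely on the delayed rectifiers of Kcnh2 and Kcnq1.

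Library totals ran from 22754591 to 29492416 counts, so a count of 0 would allow a level of 0.102 to 0.132 CPM (the count scaled to library size), a limit for counting error only. All 49 members had counts in every library, and their joint share of counts was 0.147% to 0.155% without either exposure and 0.128% to 0.138% with both. It was 0.1388% to 0.1445% in control diet postpartum and 0.1383% to 0.1479% in Western diet nonpregnant libraries. These are shares of all counts, of which mitochondrial genes held 19.2% to 21.5% over the libraries. The general cardiomyocyte markers summed to between 55540 and 67130 CPM. Of the 5 atrial genes listed, Myl7, Sln and Bmp10 each stayed at or below 0.428 CPM in every library. Myl4 stood at 1.09 to 2.18 CPM, and Nppa, which stressed ventricle also makes, at 28.5 to 98.9 CPM. Control diet postpartum replicate 3 carried fat genes, with white adipocyte markers summing to 126 CPM there and to 0.569 to 3.88 CPM elsewhere. Library numbers in the labels place all postpartum libraries before the nonpregnant ones, so effects of that order and of pregnancy cannot be told apart. Nothing in the labels says that libraries of 1 group came from separate animals, and p-values therefore reflect the spread among libraries, which may be technical. In RNA from heart tissue, fewer cells of a type and less RNA per cell cannot be told apart.

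Per length of exon, the leak channel Kcnk3 was the most abundant potassium channel gene, at a mean of 77.05 FPKM (CPM per kilobase of exon) over the 12 libraries, which was 21.6% of the summed FPKM of the 49 members. Kcnip2, the calcium-binding partner of the transient outward channels, followed at 52.6 FPKM. Kcng2, a silent subunit that works only with other alpha subunits, stood at 44.95 FPKM, and Kcnj11, the pore of the ATP-sensitive channel, at 42.97 FPKM. Kcnh2, the pore of the rapid delayed rectifier, had 20.2 FPKM and Kcnj8, the vascular ATP-sensitive pore, 17.4 FPKM. The atrial and pacemaker pair Kcnj5 and Kcnj3 came next with 14.6 and 12.6 FPKM. Of all members, 23 reached 1 FPKM, and 14 had a mean level under 1 CPM.

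**Figure D1:**
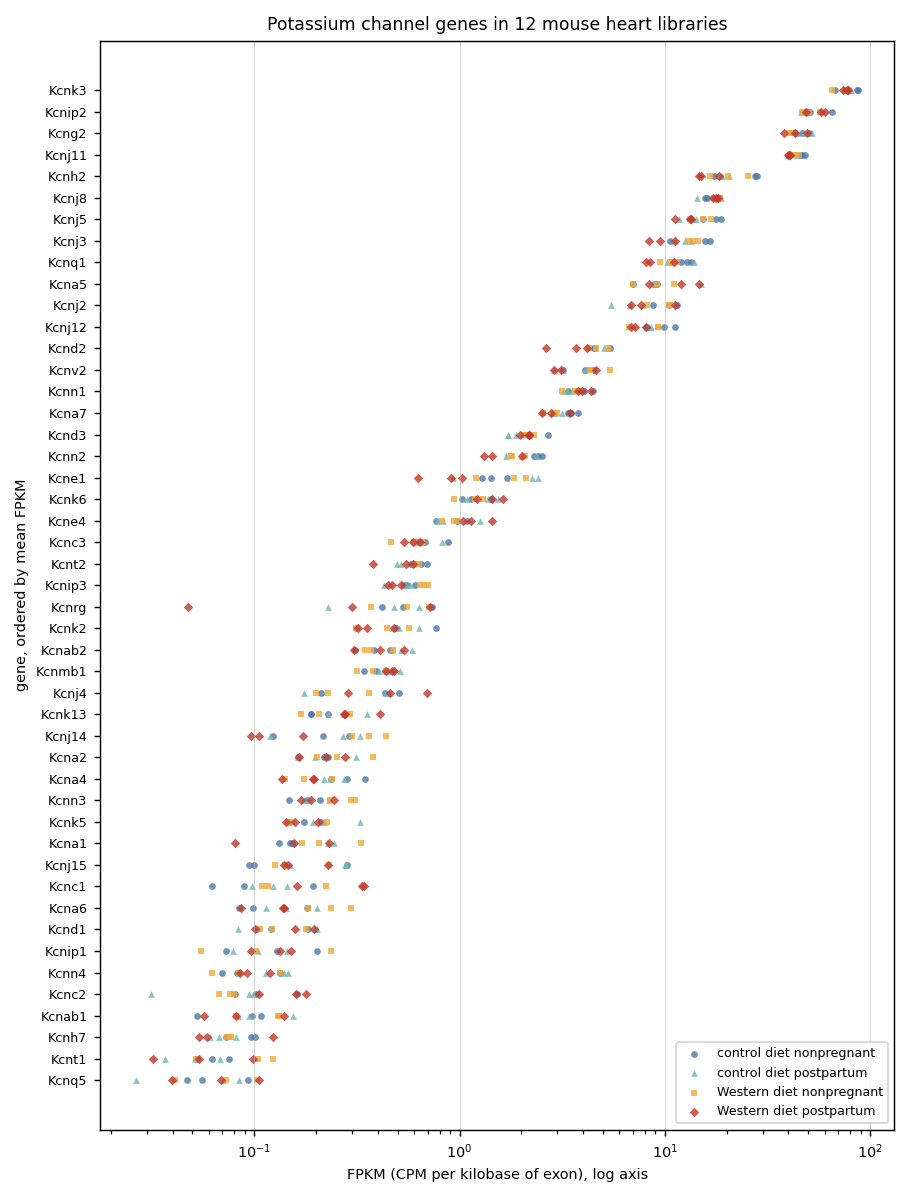
FPKM of 47 of the 49 potassium channel genes (rows, ordered by mean FPKM) in each of 12 heart libraries, on a log axis, with colour and symbol for the group. Kcnk3, Kcnip2, Kcng2 and Kcnj11 lie at the top with libraries close together, and the libraries of low genes scatter widely.

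By role, the 5 two-pore genes held 22.2% of the summed FPKM, the 2 ATP-sensitive pores 16.9% and the 7 transient outward genes 16.9%. The 7 calcium- and sodium-activated genes held 1.99%. Precision depended on depth. The 23 members with a mean of 100 counts or more had a median within-group coefficient of variation of 12.6%, against 29.9% for the 26 with fewer counts. Kcnj11 varied least of the 49 members, by 3.48% within groups, whereas Kcne1 varied by 33.0% at a mean of 125 counts.

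Differences between groups were tested with edgeR's quasi-likelihood test in a single fit of all libraries, with Benjamini-Hochberg adjustment over the 15476 genes tested, and a gene is called at an adjusted p under 0.05. All 49 members passed the filter on low counts. Kcnj5 fell postpartum averaged over diets, and both Kcnj5 and Kcnn2 fell in Western diet postpartum against control diet nonpregnant hearts. Each was at a change of less than 1 on the log2 scale.

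On the control diet, 0 members were called between postpartum and nonpregnant hearts, where 0.239% of all genes tested were called, 0.207% as higher and 0.0323% as lower. Unadjusted p lay under 0.05 for 6 of 49 members (12.2%) against 12.5% of all genes. Limma-voom called 0 members. DESeq2 called 2, Kcnj2 and Kcnd3, both lower, and 170 of 17490 genes. The median log2 fold change was -0.07 over the members and -0.01 over all genes. On the Western diet the same contrast gave 0 called members against 0.588% of all genes, 0.355% higher and 0.233% lower. There 12 members (24.5%) had an unadjusted p under 0.05, against 14.7% of all genes. Limma-voom called 0 members. Of 32 members with an adjusted p in DESeq2, Kcnj3 and Kcne1 were called, both lower, with 355 of 12485 genes. The members' median was -0.03, with -0.00 for all genes.

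Western against control diet in postpartum hearts gave 1 called member, where 0.879% of all genes were called, 0.646% as higher and 0.233% as lower. At an unadjusted p under 0.05 were 10 members (20.4%) against 14.6% of all genes, with medians of -0.06 and -0.00. Limma-voom called 1 member. DESeq2 called 3 of the 32 members with an adjusted p, of which Kcnd2 and Kcne1 were lower, and 440 of 12485 genes. The edgeR count was 0 with only those groups in the fit, 0 without replicate 1 or 3 of control diet postpartum or replicate 3 of Western diet postpartum hearts, 2 without control diet postpartum replicate 2, and 4 when replicate 2 of Western diet postpartum hearts was left out. The fits with 4 and 2 called members called 490 and 100 genes in all, and the fits with 0 called 30 to 79. In nonpregnant hearts the diets differed in 0 members, against 0.0582% of all genes (0.0452% higher and 0.0129% lower). There 5 members (10.2%) had an unadjusted p under 0.05 against 9.58% of genes. Limma-voom called 0 members and DESeq2 called 0 of the 35 with an adjusted p, and 99 of 13041 genes. The medians were -0.05 for members and -0.00 for all genes.

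Western diet postpartum against control diet nonpregnant hearts, the contrast that combines both exposures, gave 2 called members, both lower, where 2.62% of all genes were called with 1.45% higher and 1.18% lower. Unadjusted p was under 0.05 for 14 members (28.6%) against 18.2% of all genes, and the median log2 fold change was -0.10 for members against -0.00 for all genes. DESeq2 called 8 members in this contrast, 7 lower (Kcnj11, Kcnh2, Kcnj5, Kcnj3, Kcnq1, Kcnd2 and Kcnn2) and 1 higher, Kcnc1. It called 768 of 14709 genes there. Among the edgeR fits that follow, those with 6 and 5 called members called 764 and 481 genes in all, and those with 0 called 87 to 146. With edgeR and 1 library left out, the count ranged from 0 to 6, with 6 (Kcnj5, Kcnj3, Kcnq1, Kcnd2, Kcnn2 and Kcnc1) without Western diet postpartum replicate 2, 5 (Kcnh2, Kcnj5, Kcnj3, Kcnj12 and Kcnc1) without control diet nonpregnant replicate 1, and 0 without replicate 2 or 3 of control diet nonpregnant or 1 or 3 of Western diet postpartum hearts. Averaged over diets, 1 member (Kcnj5) was called postpartum against 1.78% of all genes, 1.03% higher and 0.750% lower. Averaged over pregnancy states, 1 member was called for diet against 1.38% of all genes, 0.989% higher and 0.394% lower. DESeq2 called 4 members and 591 of 14709 genes in the former. In the latter it called 3 of the 35 members with an adjusted p, and 479 of 13041 genes. The edgeR count for diet averaged over pregnancy states was 0 without Western diet nonpregnant replicate 2 or 3 (83 and 115 genes in all). It was 3 without Western diet postpartum replicate 2 (378 genes in all).

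Groups of 3 libraries did not overlap for 9 of 49 members between the pregnancy states on the control diet, where 17.1% of all genes did not overlap. On the Western diet the count was 11 against 19.6% of genes. Between diets it was 10 in postpartum hearts against 19.1%, and 12 in nonpregnant hearts against 14.8%. In Western diet postpartum against control diet nonpregnant hearts 12 members did not overlap, against 20.2% of genes. The last 12 split into 3 with all Western diet postpartum libraries higher (Kcnmb1 and Kcnk13 among them) and 9 with all of them lower (among them Kcnj11, Kcnj5, Kcnq1, Kcnd2, Kcnn2, Kcne1, Kcnip3 and Kcna4). Of all 15476 genes tested, 1601 were higher and 1531 lower in this way. These comparisons share libraries with each other, so their counts are not independent.

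**Figure D2:**
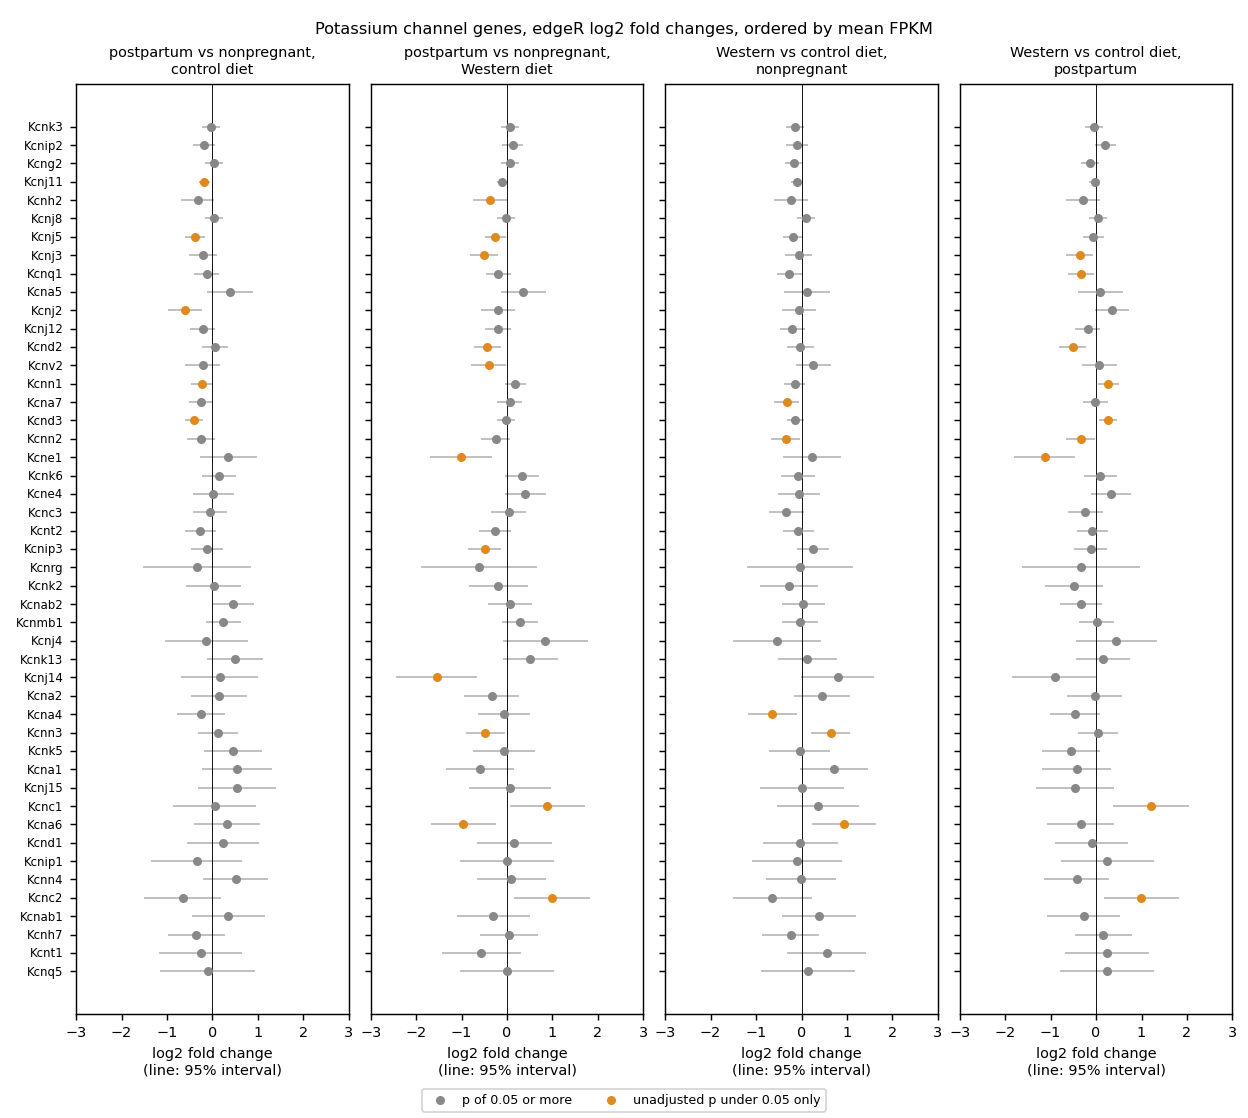
The edgeR log2 fold change of 47 of the 49 genes (points) with its 95% interval (lines) in 4 comparisons, with genes ordered by mean FPKM. No plotted gene reached an adjusted p under 0.05 in these comparisons, Kcnd2 and Kcnd3 are among those with an unadjusted p under 0.05 (orange), and intervals widen toward the low genes at the bottom.

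The acetylcholine-activated channel, which slows the heart on vagal stimulation, is built from Kcnj5 and Kcnj3. Kcnj5 (chr9:32314707-32344350, minus strand, GRCm38 coordinates of the count files) stood at 71.6, 83.1 and 88.1 CPM in control diet nonpregnant hearts, 54.9, 66.5 and 64.03 in control diet postpartum, 71.9, 78.9 and 62.2 in Western diet nonpregnant and 52.8, 62.04 and 63.02 in Western diet postpartum hearts. Every Western diet postpartum library lay below every control diet nonpregnant library, and on the control diet postpartum libraries were all below nonpregnant ones. It fell in Western diet postpartum against control diet nonpregnant hearts (log2 fold change -0.45, SE 0.11, adjusted p = 0.0420). Averaged over diets it fell postpartum by 0.32 (SE 0.07, adjusted p = 0.0457), and the values of -0.39 on the control diet (adjusted p = 0.167) and -0.26 on the Western diet (adjusted p = 0.279) were not called.

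The Kcnj5 calls sat close to the threshold. For Western diet postpartum against control diet nonpregnant hearts the log2 fold change ran from -0.53 to -0.37 over 19 alternatives, and the adjusted p from 1.51e-06 to 0.182. The call was lost with only those groups in the fit (adjusted p = 0.0689), or when 1 of 5 libraries was left out, namely replicates 2 (0.129) and 3 (0.129) of control diet nonpregnant, replicate 2 (0.0503) of control diet postpartum and replicates 1 (0.182) and 3 (0.0822) of Western diet postpartum hearts. The call averaged over diets was lost in 9 of 18 alternatives, each of which left out 1 library, at an adjusted p of 0.0517 to 0.122. Those libraries were control diet nonpregnant replicates 2 and 3, all 3 control diet postpartum replicates, and replicates 1 and 2 of Western diet nonpregnant and 1 and 3 of Western diet postpartum hearts.

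Its partner Kcnj3 (chr2:55435970-55598145, plus strand) stood at 55.6, 82.3 and 86.8 CPM in control diet nonpregnant hearts, 70.2, 65.7 and 58.8 in control diet postpartum, 71.9, 75.4 and 67.4 in Western diet nonpregnant and 43.9, 58.3 and 49.2 in Western diet postpartum hearts. Western diet postpartum libraries were lower than Western diet nonpregnant and control diet postpartum ones without overlap, whereas control diet nonpregnant replicate 1 lay within their range. The log2 fold change of Kcnj3 was -0.50 postpartum on the Western diet (adjusted p = 0.127) and -0.57 for Western diet postpartum against control diet nonpregnant hearts (adjusted p = 0.0509), not called by edgeR or limma-voom. DESeq2 called Kcnj3 lower in both (adjusted p = 0.0254 and 0.00508) and postpartum averaged over diets (0.0212). EdgeR called it in both without control diet nonpregnant replicate 1 (0.0288 and 0.00565) or without Western diet postpartum replicate 2 (0.0423 and 0.0228). Of the exon bases of Kcnj3, 31.1% overlap the antisense gene Gm26794, and without strand their reads cannot be told apart.

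**Figure D3:**
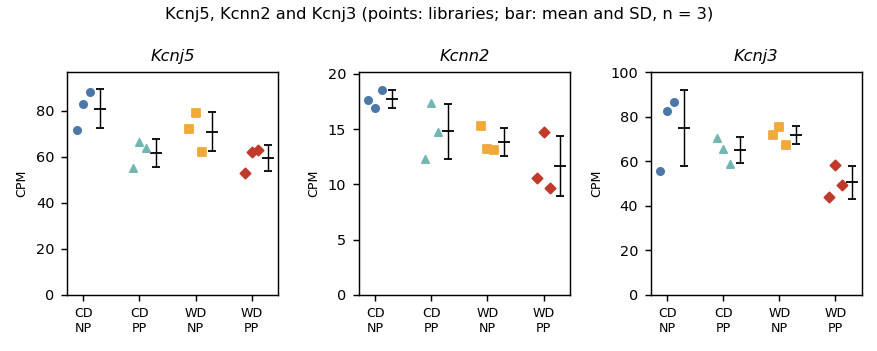
CPM of Kcnj5, Kcnn2 and Kcnj3 in each library (points) with the group mean and SD (bars, n = 3), for control diet (CD) or Western diet (WD), nonpregnant (NP) or postpartum (PP) hearts. All 3 genes have their lowest means in Western diet postpartum hearts, and the control diet nonpregnant libraries of Kcnj5 and Kcnn2 all lie above them.

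The bases before the start sites of Kcnj5 and Kcnj3 are shown because both subunits form 1 channel and had their lowest means in the same group. Each stretch is the 250 bases before the start site in RefSeq on GRCm38.p6, read along the gene's strand, with capitals marking GC boxes (GGGCGG on either strand).
Kcnj5, chr9:32344345-32344594, minus strand: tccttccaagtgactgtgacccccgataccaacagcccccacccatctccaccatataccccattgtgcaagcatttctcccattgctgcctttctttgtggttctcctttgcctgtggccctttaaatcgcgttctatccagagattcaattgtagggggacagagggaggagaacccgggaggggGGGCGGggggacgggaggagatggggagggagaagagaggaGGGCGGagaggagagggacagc
Kcnj3, chr2:55435720-55435969, plus strand: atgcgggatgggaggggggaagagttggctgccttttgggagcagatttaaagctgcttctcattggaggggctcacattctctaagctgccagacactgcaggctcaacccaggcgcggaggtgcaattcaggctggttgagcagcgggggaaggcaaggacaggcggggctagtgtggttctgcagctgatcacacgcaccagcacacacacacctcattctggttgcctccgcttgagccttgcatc
The Kcnj5 stretch held 2 GC boxes, 63 and 22 bases before the start to their first base, and the Kcnj3 stretch held none. GC boxes are common in promoters, and 32.7% of the 32851 promoter stretches of the same length held at least 1. Of the 34 members with an entry, 18 held a GC box in any of their stretches. Members were counted by gene and the shares over all promoters by stretch, for each motif, so they are unlike measures. The E-box CACGTG, bound by clock factors among others, occurred in 6.02% of all stretches and in 4 members (Kcnab1, Kcne4, Kcnj2 and Kcnn4), and the D-box TTATGTAA in 0.819% and in 0 members. A match is a description of these letters and shows no binding.

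Among the delayed rectifier genes, Kcnh2, Kcnq1 and Kcne1 were not called by edgeR or limma-voom in any comparison of the 8, whereas DESeq2 called each in at least 1. Kcnh2, the pore of the rapid current, stood at 83.99, 137 and 134 CPM in control diet nonpregnant hearts, 90.8, 99.9 and 91.9 in control diet postpartum, 80.3, 124 and 98.4 in Western diet nonpregnant and 72.4, 88.7 and 71.5 in Western diet postpartum hearts. Western diet postpartum hearts held 2 of the 3 lowest libraries, and control diet nonpregnant replicate 1 lay far below the other libraries of its group. The log2 fold change of Kcnh2 for Western diet postpartum against control diet nonpregnant hearts was -0.61 (SE 0.17, adjusted p = 0.0763). Without that low library it was -0.80 and called (adjusted p = 0.0148). That library was singled out by its own low Kcnh2 value, so a larger fall without it was fixed by the choice and adds no support. DESeq2 called Kcnh2 lower in this contrast with all libraries (adjusted p = 0.0127). Kcnq1, the pore of the slow current, stood at 48.96, 54.8 and 52.4 CPM in control diet nonpregnant hearts, 44.1, 41.95 and 56.9 in control diet postpartum, 43.8, 47.1 and 38.8 in Western diet nonpregnant and 34.7, 45.6 and 33.2 in Western diet postpartum hearts. The control diet nonpregnant libraries of Kcnq1 all lay above those of Western diet postpartum hearts, at a log2 fold change of -0.46 (SE 0.13, adjusted p = 0.0734). EdgeR called Kcnq1 there without control diet postpartum replicate 3 (0.0478) or Western diet postpartum replicate 2 (0.0135), and DESeq2 called it there (adjusted p = 0.0220) and for diet averaged over pregnancy states (0.0471).

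Kcne1, the small partner that slows the gating of Kcnq1, stood at 4.11, 5.46 and 4.54 CPM in control diet nonpregnant hearts, 7.70, 2.98 and 7.18 in control diet postpartum, 3.87, 6.70 and 5.91 in Western diet nonpregnant and 2.90, 3.28 and 2.01 in Western diet postpartum hearts. Each Western diet postpartum library lay below each Western diet nonpregnant library, whereas control diet postpartum hearts held both the highest libraries and 1 low one. Between diets in postpartum hearts the log2 fold change was -1.13 (SE 0.31, adjusted p = 0.107) and that of the interaction -1.36 (adjusted p = 0.434). DESeq2 called Kcne1 lower between diets in postpartum hearts (adjusted p = 0.0130) and postpartum on the Western diet (adjusted p = 0.0435), and edgeR called the former without control diet postpartum replicate 2 (0.0162). The ratio of Kcne1 to Kcnq1 FPKM was 0.107, 0.128 and 0.111 in control diet nonpregnant hearts, 0.224, 0.0912 and 0.162 in control diet postpartum, 0.113, 0.182 and 0.195 in Western diet nonpregnant and 0.107, 0.0922 and 0.0776 in Western diet postpartum hearts. It was lowest in mean in Western diet postpartum hearts, and 1 control diet postpartum library fell within their range. Kcne4, a relative of Kcne1 that dampens Kcnq1, stood at 2.04 to 3.81 CPM over the 12 libraries.

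The fast transient outward current, the main early repolarizing current of the mouse ventricle, is carried by Kcnd2 and Kcnd3 with Kcnip2. Kcnip2 stood at 228, 169.6 and 177 CPM in control diet nonpregnant hearts, 159.6, 171 and 173 in control diet postpartum, 198, 162 and 174 in Western diet nonpregnant and 170.0, 201 and 210.0 in Western diet postpartum hearts. Its libraries overlapped in each of the 5 comparisons of 2 groups, and its log2 fold change was 0.21 between diets in postpartum hearts (95% interval -0.03 to 0.44). Kcnd2, the pore of this current in the outer wall of the mouse ventricle, stood at 27.8, 23.3 and 23.2 CPM in control diet nonpregnant hearts, 27.6, 23.5 and 26.2 in control diet postpartum, 27.3, 23.8 and 22.1 in Western diet nonpregnant and 13.6, 21.5 and 19.01 in Western diet postpartum hearts. All Western diet postpartum libraries lay below all libraries of the other 3 groups. Against the other groups the log2 fold change of Kcnd2 was -0.52 against control diet postpartum (SE 0.14, adjusted p = 0.0971), -0.44 against Western diet nonpregnant (adjusted p = 0.173) and -0.46 against control diet nonpregnant hearts (adjusted p = 0.0955). None of these was called by edgeR or limma-voom, and DESeq2 called the first (adjusted p = 0.0181) and the last (0.0417). Without Western diet postpartum replicate 1, the lowest library of Kcnd2, the second and last values were -0.27 and -0.29, and without replicate 2 of that group edgeR called all 3 (adjusted p = 0.0238, 0.0436 and 0.0296).

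Kcnd3, the other pore of the transient current, stood at 20.8, 21.2 and 25.96 CPM in control diet nonpregnant hearts, 17.98, 16.5 and 16.5 in control diet postpartum, 19.8, 22.1 and 19.9 in Western diet nonpregnant and 20.9, 21.01 and 18.97 in Western diet postpartum hearts. Here control diet postpartum hearts were the low group, with every library below every library of the other groups. Postpartum on the control diet its log2 fold change was -0.41 (SE 0.09, adjusted p = 0.0907), the smallest p of any lower member in that comparison, and it was called by DESeq2 (adjusted p = 0.0220) and by edgeR without control diet nonpregnant replicate 1 (0.0344 for Kcnd3). On the Western diet the same difference was -0.02 (95% interval -0.22 to 0.17). The difference between those, the interaction, was 0.39 (SE 0.13, unadjusted p = 0.00880, adjusted p = 0.437) and was not called. Kcna4, the slow transient outward pore, stood at 1.14, 1.68 and 1.36 CPM in control diet nonpregnant hearts, 1.06, 1.32 and 1.14 in control diet postpartum, 1.16, 0.682 and 0.845 in Western diet nonpregnant and 0.939, 0.657 and 0.942 in Western diet postpartum hearts. No comparison of Kcna4 was called by edgeR, and the lowest control diet nonpregnant library lay above each Western diet postpartum library.

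Ratios of these subunits were chosen with their values known and are therefore given without a test. The Kcnip2 to Kcnd2 ratio of FPKM was 12.2, 10.8 and 11.3 in control diet nonpregnant hearts, 8.59, 10.8 and 9.82 in control diet postpartum, 10.7, 10.1 and 11.7 in Western diet nonpregnant and 18.5, 13.9 and 16.4 in Western diet postpartum hearts. Every Western diet postpartum library exceeded every other library. The Kcnd3 to Kcnd2 ratio was 0.402, 0.490 and 0.602 in control diet nonpregnant hearts, 0.351, 0.377 and 0.338 in control diet postpartum, 0.391, 0.500 and 0.483 in Western diet nonpregnant and 0.828, 0.525 and 0.536 in Western diet postpartum hearts. The lowest libraries in this ratio were those of control diet postpartum hearts, with means of 0.355 ± 0.0200 (SD, n = 3) there and 0.630 ± 0.172 in Western diet postpartum hearts. Kcnip3 stood at 1.51 to 2.49 CPM and Kcnd1 and Kcnip1 at 0.341 to 1.46 CPM, with 0 calls by edgeR among them.

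**Figure D4:**
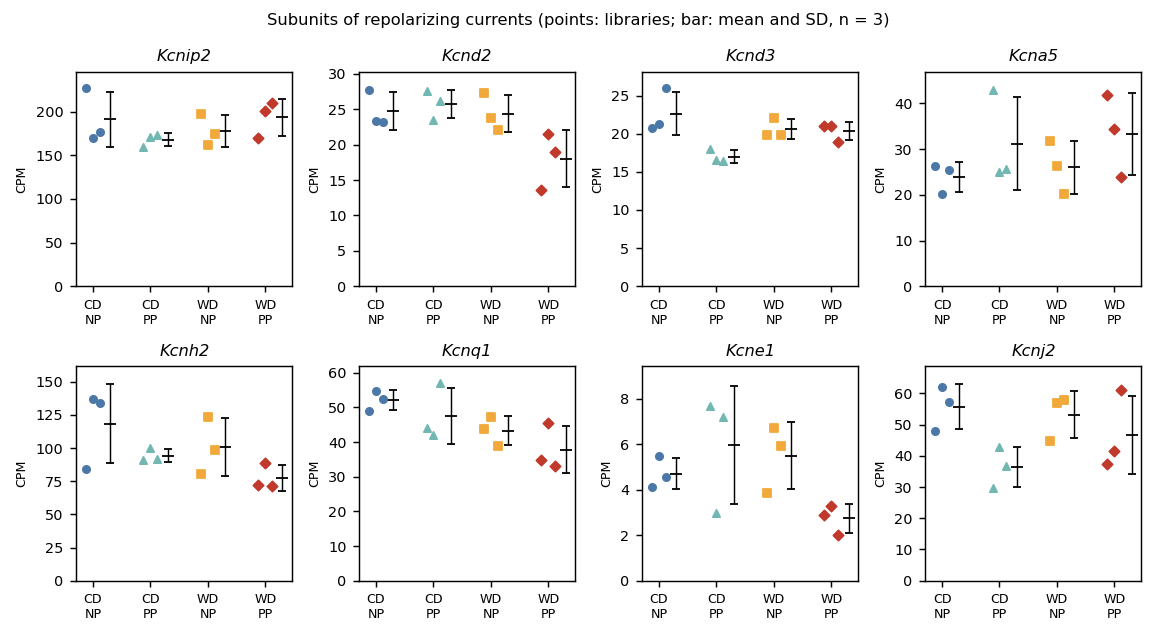
CPM of 8 subunits of repolarizing currents in each library (points) with the group mean and SD (bars, n = 3), labelled by control diet (CD) or Western diet (WD) and nonpregnant (NP) or postpartum (PP). Kcnd2 is low in Western diet postpartum hearts and Kcnd3 in control diet postpartum hearts, while Kcnip2 overlaps between all groups.

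**Figure D5:**
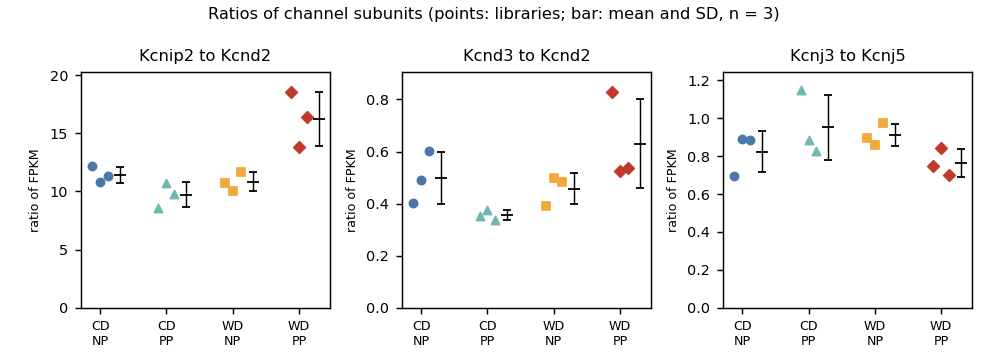
Ratio of FPKM between subunits of 1 channel in each library (points) with the group mean and SD (bars, n = 3), labelled as CD or WD for diet and NP or PP for pregnancy state. The Kcnip2 to Kcnd2 ratio lies between 13.9 and 18.5 in Western diet postpartum hearts and between 8.59 and 12.2 in the other groups.

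Kcna5, the pore of the rapidly activating delayed rectifier, stood at 26.2, 20.1 and 25.4 CPM in control diet nonpregnant hearts, 42.97, 24.97 and 25.6 in control diet postpartum, 31.8, 26.2 and 20.1 in Western diet nonpregnant and 41.8, 34.3 and 23.9 in Western diet postpartum hearts. The groups overlapped, and replicate 1 was the highest of each postpartum group, by a wide margin on the control diet only. The log2 fold change of Kcna5 postpartum averaged over diets was 0.37 (95% interval 0.02 to 0.72, adjusted p = 0.257), or 0.22 without that high control diet library. Kcna7, a muscle subunit of the Kcna family, stood at 7.36, 7.61 and 8.26 CPM in control diet nonpregnant hearts, 6.33, 6.90 and 6.17 in control diet postpartum, 5.54, 6.40 and 6.48 in Western diet nonpregnant and 6.09, 7.57 and 5.52 in Western diet postpartum hearts. It had the smallest p of any lower member for diet in nonpregnant hearts (log2 fold change -0.33, adjusted p = 0.427).

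Low-level voltage-gated genes had wide differences and wide errors. Kcnc1, a fast-gating subunit best known from neurons, stood at 1.82, 0.840 and 0.590 CPM in control diet nonpregnant hearts, 0.919, 1.16 and 1.36 in control diet postpartum, 1.03, 1.10 and 2.11 in Western diet nonpregnant and 3.23, 1.53 and 3.17 in Western diet postpartum hearts. Western diet postpartum replicates 1 and 3 exceeded 3 CPM and replicate 2 lay within the range of control diet nonpregnant hearts. Kcnc1 had a log2 fold change of 1.25 (SE 0.40, adjusted p = 0.112), the smallest p of any higher member in Western diet postpartum against control diet nonpregnant hearts. Kcnc1 was called there by DESeq2 (adjusted p = 0.0479) and by edgeR without control diet nonpregnant replicate 1 (1.88, 0.0344) or Western diet postpartum replicate 2 (1.52, 0.0416). Its relative Kcnc2 stood at 1.00, 0.630 and 0.499 CPM in control diet nonpregnant hearts, 0.613, 0.582 and 0.195 in control diet postpartum, 0.472, 0.417 and 0.493 in Western diet nonpregnant and 1.10, 0.657 and 0.985 in Western diet postpartum hearts. Postpartum libraries on the Western diet lay above nonpregnant ones without overlap, at 0.99 on the log2 scale (SE 0.39, adjusted p = 0.261). Kcna1 and Kcna6, neighbours of Kcna5 on chromosome 6, had interactions of -1.14 (adjusted p = 0.529) and -1.28 (adjusted p = 0.469). Schwann cell and neuron markers, whose cells also use these subunits, summed to 15.0 to 17.3 CPM in Western diet postpartum and 17.0 to 22.8 CPM in Western diet nonpregnant hearts, and their part in these values was not tested.

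The classical inward rectifiers, which set the resting potential, are Kcnj2 and Kcnj12. Kcnj2 stood at 47.9, 62.1 and 57.1 CPM in control diet nonpregnant hearts, 29.7, 42.7 and 36.9 in control diet postpartum, 44.6, 57.1 and 57.9 in Western diet nonpregnant and 37.3, 41.6 and 61.01 in Western diet postpartum hearts. All control diet postpartum libraries lay below all control diet nonpregnant ones, while the Western diet groups overlapped. Postpartum on the control diet Kcnj2 had a log2 fold change of -0.61 (SE 0.17, adjusted p = 0.181), with a call by DESeq2 (adjusted p = 0.0473), and on the Western diet it was -0.19 (95% interval -0.56 to 0.18). The interaction of 0.42 had an adjusted p of 0.618. Kcnj12 stood at 22.2, 27.3 and 30.8 CPM in control diet nonpregnant hearts, 22.5, 23.6 and 23.02 in control diet postpartum, 18.4, 25.4 and 25.6 in Western diet nonpregnant and 22.3, 19.7 and 18.8 in Western diet postpartum hearts. Western diet postpartum libraries lay below those of control diet postpartum hearts and overlapped only the lowest control diet nonpregnant library. Against control diet nonpregnant hearts the log2 fold change of Kcnj12 was -0.40 (adjusted p = 0.122). Kcnj12 was called without that lowest library (0.0458), but leaving out a library for its low value had to enlarge the fall.

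Kcnj14, a further strong rectifier of low level, stood at 0.786, 0.336 and 0.590 CPM in control diet nonpregnant hearts, 0.885, 0.737 and 0.325 in control diet postpartum, 0.816, 0.985 and 1.20 in Western diet nonpregnant and 0.286, 0.263 and 0.471 in Western diet postpartum hearts. The Western diet postpartum libraries all lay below the Western diet nonpregnant ones, at -1.55 on the log2 scale (SE 0.41, adjusted p = 0.106), the smallest p of any lower member postpartum on that diet. Its highest library had 1.20 CPM. Kcnj4 and Kcnj15 ranged from 0.375 to 1.89 CPM, and edgeR called 0 of the 5 inward rectifier genes in any of the 8 comparisons, with Kcnj2 called by DESeq2 postpartum on the control diet and averaged over diets (adjusted p = 0.0323 for Kcnj2 in the latter).

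The ATP-sensitive channel opens when cell energy falls, and its pores are Kcnj11 in heart muscle and Kcnj8 in vessels. Kcnj11 stood at 171, 168 and 178 CPM in control diet nonpregnant hearts, 148, 160.0 and 147 in control diet postpartum, 159, 166 and 154 in Western diet nonpregnant and 148, 147 and 149.9 in Western diet postpartum hearts. Every control diet nonpregnant library lay above every library of the other groups, by small margins. The log2 fold change was -0.21 in Western diet postpartum against control diet nonpregnant hearts (SE 0.06, adjusted p = 0.0551) and -0.15 postpartum averaged over diets (adjusted p = 0.0730), with calls by DESeq2 alone of the 3 tools (adjusted p = 0.00811 and 0.0142). Kcnj8 stood at 47.03, 40.2 and 40.9 CPM in control diet nonpregnant hearts, 36.7, 46.5 and 48.1 in control diet postpartum, 47.5, 45.2 and 44.3 in Western diet nonpregnant and 43.9, 45.3 and 46.4 in Western diet postpartum hearts. Its groups overlapped throughout, and the 95% interval for the combined contrast ran from -0.12 to 0.28. The sulfonylurea receptors that surround these pores are Abcc9 and Abcc8, and Abcc9 stood at 473, 390.4 and 378 CPM in control diet nonpregnant hearts, 355, 382 and 385 in control diet postpartum, 374, 330.0 and 336 in Western diet nonpregnant and 333, 319 and 344 in Western diet postpartum hearts. The log2 fold change of Abcc9 in the combined contrast was -0.32 (adjusted p = 0.0577), and that of Abcc8 -0.28 (adjusted p = 0.0622).

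Kcnk3, the acid-sensitive leak channel and the most abundant member, stood at 268, 342 and 348 CPM in control diet nonpregnant hearts, 304, 322 and 312 in control diet postpartum, 259, 311 and 299 in Western diet nonpregnant and 309.6, 308 and 293 in Western diet postpartum hearts. The groups overlapped in every comparison, and the 95% intervals lay within -0.34 to 0.26 in the 4 comparisons of diet or pregnancy within 1 level of the other. Brown fat also uses Kcnk3, and the library with fat genes, control diet postpartum replicate 3, had 312 CPM against 304 and 323 CPM in its group. Kcnk13 stood at 0.714, 0.588 and 0.590 CPM in control diet nonpregnant hearts, 0.715, 0.853 and 1.10 in control diet postpartum, 0.644, 0.909 and 0.528 in Western diet nonpregnant and 0.858, 1.27 and 0.856 in Western diet postpartum hearts. It had the smallest p of any higher member postpartum averaged over diets (log2 fold change 0.50, SE 0.20, adjusted p = 0.215). Kcnk2, the stretch-activated channel, ranged from 1.54 to 3.79 CPM, Kcnk6 from 3.91 to 6.74 CPM and Kcnk5 from 0.482 to 1.10 CPM, and edgeR called 0 of the 5 two-pore genes in any of the 8 comparisons.

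Kcnn2, a small-conductance calcium-activated channel that shortens the action potential where it is expressed, stood at 17.7, 16.9 and 18.5 CPM in control diet nonpregnant hearts, 12.3, 17.3 and 14.7 in control diet postpartum, 15.3, 13.2 and 13.1 in Western diet nonpregnant and 10.5, 14.8 and 9.68 in Western diet postpartum hearts. The control diet nonpregnant libraries all lay above all libraries of both Western diet groups. Kcnn2 fell in Western diet postpartum against control diet nonpregnant hearts (log2 fold change -0.60, SE 0.15, adjusted p = 0.0472), and edgeR called it in no other comparison. Averaged over pregnancy states the diet difference was -0.35 (SE 0.10, adjusted p = 0.124), the smallest p of any lower member there, and Kcnn2 was called there by DESeq2 (adjusted p = 0.0468) and by edgeR without Western diet postpartum replicate 2 (0.0158). The Kcnn2 call held in 8 of 19 alternatives, with log2 fold changes of -0.81 to -0.48 and an adjusted p of 2.07e-06 to 0.189. Without any single library other than control diet postpartum replicates 1 and 2 and Western diet postpartum replicate 2 the call was lost, at an adjusted p of 0.0507 to 0.189, as it was in a fit of only those groups (0.0905) and without both libraries that stood apart, the one with fat genes and replicate 1 of control diet nonpregnant hearts (0.0863).

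Kcnn3, its relative in vessels and nerve, stood at 2.18, 1.89 and 1.54 CPM in control diet nonpregnant hearts, 2.42, 1.90 and 1.82 in control diet postpartum, 2.45, 3.22 and 3.10 in Western diet nonpregnant and 1.76, 1.97 and 2.57 in Western diet postpartum hearts. Western diet nonpregnant libraries lay above all control diet nonpregnant ones, and this was the smallest p of any higher member for diet in nonpregnant hearts (log2 fold change 0.64, SE 0.20, adjusted p = 0.331). Kcnn1 stood between 14.5 and 20.6 CPM, with -0.24 postpartum on the control diet and 0.18 on the Western diet and an interaction of 0.41 (adjusted p = 0.466). Without control diet nonpregnant replicate 3 the first Kcnn1 value was -0.14. Kcnn4, Kcnmb1, Kcnt1 and Kcnt2 had 0 calls by edgeR. Kcnma1, the pore that Kcnmb1 serves in smooth muscle, had a mean of 2.67 counts and so is no member.

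Kcng2 stood at 129, 139.7 and 150.4 CPM in control diet nonpregnant hearts, 143, 156 and 132 in control diet postpartum, 120.5, 125 and 127 in Western diet nonpregnant and 148, 114 and 128 in Western diet postpartum hearts. The Western diet nonpregnant libraries lay below the control diet nonpregnant ones, by 0.17 on the log2 scale at an adjusted p of 0.575, and the other 4 comparisons of 2 groups overlapped. Kcnab2, a cytoplasmic beta subunit, stood at 2.57, 1.72 and 2.13 CPM in control diet nonpregnant hearts, 3.27, 2.91 and 2.63 in control diet postpartum, 2.06, 2.65 and 1.94 in Western diet nonpregnant and 2.98, 2.28 and 1.71 in Western diet postpartum hearts. It had the smallest p of any higher member postpartum on the control diet (log2 fold change 0.45, adjusted p = 0.423), and its libraries there did not overlap. Kcnv2, a silent subunit, ranged from 14.7 to 27.8 CPM.

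Reads of some members, high and low, are uncertain where their exons overlap another gene. Kcnk3 shares 5.76% of its exon bases with Gm9899 (a mean of 667 counts against 7864 for Kcnk3). Kcng2 shares 9.1% with D330025C20Rik (251 against 3455 counts). Kcna6 shares 39.6% of its exon bases with Gm26673, which had a mean of 0.333 counts against 24.5 for Kcna6. Kcnh7, a voltage-gated relative of Kcnh2, shares 4.57% with the more abundant Gca (345 against 30.5 counts). Kcnn2 shares 3.88% with A330093E20Rik (3.58 against 372 counts), and for Kcnj5 no overlap was found.

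No gene of any kind was called by edgeR for the interaction of diet and pregnancy (0.00% of 15476 genes, 1390 of them with an unadjusted p under 0.05), so no member was shown to respond to pregnancy differently on the 2 diets. Unadjusted p was under 0.05 for 9 of 49 members (18.4%) against 8.98% of all genes, among them Kcne1, Kcnd3, Kcnj14, Kcnc2, Kcna6, Kcnn1, Kcnd2 and Kcna1. Limma-voom called 0 members, and DESeq2 called 46 of 4136 genes but 0 of the 11 members for which it gave an adjusted p. Kcne1 had the smallest p of the lower and Kcnd3 of the higher members.

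Of 26 tested genes for partners and regulators of these channels, 2 fell in Western diet postpartum against control diet nonpregnant hearts, with a list median of -0.18 against -0.00 over all genes, and the same 2 fell with diet averaged over pregnancy states. Ank2, the ankyrin-B scaffold, stood at 144, 151 and 143 CPM in control diet nonpregnant hearts, 142, 136 and 128 in control diet postpartum, 123, 124 and 129 in Western diet nonpregnant and 106, 128 and 114 in Western diet postpartum hearts. All Western diet postpartum libraries lay below all control diet nonpregnant ones (log2 fold change -0.33, SE 0.07, adjusted p = 0.0266). Etv1, a transcription factor of the fast conduction system, stood at 10.2, 10.4 and 6.90 CPM in control diet nonpregnant hearts, 8.68, 9.03 and 8.54 in control diet postpartum, 7.73, 5.95 and 7.08 in Western diet nonpregnant and 6.62, 5.34 and 5.39 in Western diet postpartum hearts. It fell in the same contrast (log2 fold change -0.66, SE 0.16, adjusted p = 0.0392). Klf15, a clock-driven activator of Kcnip2, stood at 77.8, 63.5 and 65.9 CPM in control diet nonpregnant hearts, 63.6, 52.4 and 49.3 in control diet postpartum, 74.7, 68.8 and 61.3 in Western diet nonpregnant and 61.4, 62.5 and 66.6 in Western diet postpartum hearts. Its groups overlapped for that contrast (log2 fold change -0.12, adjusted p = 0.572). Of 15 tested genes for the sodium-potassium pump and cation cotransport, 0 were called in any of the 8 comparisons by edgeR, and 1 to 4 per comparison had an unadjusted p under 0.05.

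Clock genes time the expression of several of these channels in the heart. Of 18 tested, 7 fell postpartum averaged over diets (Ciart, Bhlhe41, Dbp, Nr1d2, Hlf, Nr1d1 and Tef), 3 fell postpartum on the Western diet, and in Western diet postpartum against control diet nonpregnant hearts 5 fell and 1, Nfil3, rose. Dbp, an output factor of the clock, stood at 133, 175 and 142 CPM in control diet nonpregnant hearts, 53.6, 105 and 94.8 in control diet postpartum, 156, 129 and 119 in Western diet nonpregnant and 35.2, 55.4 and 54.4 in Western diet postpartum hearts. Postpartum libraries lay below nonpregnant ones on each diet, and Dbp fell by 1.16 averaged over diets (SE 0.15, adjusted p = 0.00625). The time of day of collection is not given in the sources used here, and the part of the clock in the channel values was not tested. Averaged over diets, 2 of 6 macrophage markers (C1qa and Cd68) and 2 of 6 fibroblast markers (Col1a1 and Col1a2) were also called higher postpartum. The same markers were called on the control diet, whereas on the Western diet 0 of either list were called or had an unadjusted p under 0.05. Summed cardiomyocyte markers ran from 60670 to 67130 CPM in control diet nonpregnant hearts and 55540 to 62500 CPM in control diet postpartum hearts. In Western diet hearts they ran from 56600 to 58620 CPM nonpregnant and 57570 to 60380 CPM postpartum. In Western diet postpartum against control diet nonpregnant hearts, 1 of 6 endothelial (Pecam1) and 1 of 6 fibroblast markers (Pdgfra) rose. Endothelial markers summed to 735 to 777 CPM in the control diet nonpregnant and 829 to 917 CPM in the Western diet postpartum libraries. The part of these cell types in the lower Kcnj5 and Kcnn2 levels was not tested.

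The summed level of all 49 members was 1427, 1546 and 1605 CPM in control diet nonpregnant hearts, 1356, 1435 and 1382 in control diet postpartum, 1365, 1469 and 1390.0 in Western diet nonpregnant and 1327, 1384 and 1345 in Western diet postpartum hearts. Each Western diet postpartum library lay below each control diet nonpregnant library, and the other pairs of groups overlapped. Without Kcnk3 the sum ran from 1159 to 1256 CPM in control diet nonpregnant hearts and was below that range in every library of the other 3 groups. The margin was narrow, with 1159 CPM in control diet nonpregnant replicate 1 and 1158 CPM in Western diet nonpregnant replicate 2. That control diet library had the lowest Kcnk3 (268 CPM) and the highest Kcnip2 (228 CPM) of its group. Kcnk3 was left out with these values known, so the separation without it rests on that choice and was not tested.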

How the data were processed

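Libraries were made from heart RNA (Qiagen RNeasy, NEBNext Ultra RNA kit), per the labels' protocols. The submitters' processing notes name FastQC, STAR 2.5.2b, featureCounts of Subread 1.5.2 and GRCm38 (mm10), without their roles. The strand setting and the annotation release are not stated in the labels or headers. Each deposited file holds raw counts of reads for every gene, per the file headers. Exons of 16 members overlap another gene, so reads there may be shared.

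Identifiers were matched to symbols with the GENCODE vM21 annotation, which left 345 genes unnamed. Low counts were removed with filterByExpr (minimum count 10, minimum total 15), leaving 15476 genes. Libraries were scaled by TMM and fitted with edgeR 4.0.16 (quasi-likelihood F test, two-sided, Benjamini-Hochberg over all genes in each of 8 comparisons, threshold 0.05), with 8 residual degrees of freedom. CPM uses the scaled library sizes, and FPKM divides CPM by the exon length of the count files. SE was taken from the fold change and the F statistic, and intervals are at 95%. Alternatives were DESeq2 1.42.0, limma-voom 3.58.1, DESeq2's size factors, other filters on low counts, only the groups compared, each library left out, and both libraries that stood apart left out. The procedure was tested on simulated data.

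The members, lists, roles and ratios were chosen with earlier results of these data known. Values per library are given for each called member, for the member of smallest p in each direction without a call, for the 6 most abundant per length, and for 17 subunits of known cardiac currents, except 2 members that enter the fits and counts but are not reported here. Promoter stretches come from RefSeq (GRCm38.p6), and 34 of 49 members matched.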

Additional observations from a re-analysis of the deposited data

How the results depend on the processing

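Over 80 pairs of member and comparison, 1343 values under the alternatives kept their direction and side of the threshold, 89 gained a call, 34 lost one and 0 reversed direction. Nearly all of these pairs had an unadjusted p under 0.05 in the edgeR fit of all libraries. Reversals were therefore unlikely from the start, and their absence says nothing about the other pairs. Counts of called members in the order postpartum on the control diet, postpartum on the Western diet, diet postpartum, combined contrast, postpartum averaged and diet averaged were 0, 0, 1, 2, 1 and 1. In the same order 37, 91, 136, 406, 276 and 214 genes were called in all. Without a filter on low counts the member counts were 5, 9, 9, 11, 9 and 8, with 3 for the interaction. That setting called 744, 933, 1048, 1315, 1262 and 1029 genes in all, and 506 for the interaction. With DESeq2 the member counts were 2, 2, 3, 8, 4 and 3, with 170, 355, 440, 768, 591 and 479 genes in all. Keeping genes at 1 CPM or more in 3 libraries gave 4 members and 450 genes in the combined contrast. With only the groups compared, the diet postpartum and combined contrasts gave 0 and 0 members, with 71 and 136 genes in all. Without both libraries that stood apart, the member counts were 1 postpartum on the Western diet, 0 for diet postpartum, 5 for the combined contrast and 3 postpartum averaged. Those fits called 116, 124, 457 and 293 genes in all. The cause of these differences was not tested. With each library left out in turn, genes called in all ranged from 0 to 205, 0 to 472, 30 to 490, 87 to 764, 52 to 567 and 83 to 378 in the same order. Counts of members ranged from 0 to 1, 0 to 2, 0 to 4, 0 to 6, 0 to 4 and 0 to 3. Leaving out Western diet postpartum replicate 2 gave the highest count in each of the last 5, and leaving out control diet nonpregnant replicate 1 gave 5 in the combined contrast and 3 postpartum averaged. No paired analysis was possible because the groups share no replicate numbers in the labels. The 14 members with a mean under 1 CPM limit what could be detected, and an uncalled gene there is not shown to be unchanged.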
